A study of Mus musculus with 21 samples.

Results

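The cytosolic ribosomal protein genes were taken as the protein-coding genes of the mouse build GRCm38 whose symbol is Rpl or Rps followed by a digit, together with Rpsa, Rplp0, Rplp1 and Rplp2, leaving out pseudogenes and the Rps6k kinases. The rule gave 89 of 21900 protein-coding genes. Of these, 46 encode proteins of the large subunit and 31 proteins of the small subunit, 10 are paralogs (Rpl22l1, Rpl37rt, Rps27l, Rps27rt, Rpl32l, Rpl10l, Rpl36al, Rpl39l, Rpl3l and Rpl7l1), and Rps19bp1 and Rps23rg1 carry a matching symbol but encode no ribosomal protein. Binding of PSME3, a noncanonical activator of the proteasome, and the promoter mark H3K4me3 were mapped by CUT&RUN, in which a nuclease tethered to an antibody clips out the DNA that the antibody's target sits on. The cells were C2C12, an established mouse myoblast line. Cycling cells were kept in medium with 20% FBS, and their unfixed cells were frozen in 10% DMSO before the assay (3 replicates per antibody). Day 2 cells were taken 48 h after confluent cultures were moved to 2% horse serum, which starts myogenic differentiation, and were assayed in 4 preparations (fresh or frozen, and either native or crosslinked with 0.1% formaldehyde) with 1 library of each antibody per preparation. All groups were the same unmodified cell line. The frozen native day 2 library is the preparation that was handled like the cycling cells, and the day 2 preparations have no replicate.

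Each ribosome is built from a single copy of nearly every ribosomal protein, so the genes for these proteins are expressed together at high levels in growing cells. Their promoters are compact and mostly lack a TATA box, and transcription begins at a C inside a run of pyrimidines, the TOP tract, which links translation of the mRNA to growth signalling. H3K4me3 is laid down on nucleosomes around the start of active genes, and in the most active genes it reaches into the gene body. When myoblasts leave the cell cycle to differentiate, ribosome production is known to decline.

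The start windows of 3 members are shown because they led the members in PSME3 fold enrichment in the pooled list. That of Rpl38 is shown because it has the highest pooled H3K4me3 fold enrichment among canonical members without PSME3. No member had a PSME3 peak in every cycling replicate, so these 3 windows were chosen after their values were seen. The sequences are from RefSeq on GRCm38.p6 and run from 250 bases before the start to 20 bases from it, 5′ to 3′ along the gene. Capitals mark the letters CCGGAAG (the ETS motif), GCCATNTT (YY1) and GGGCGG (Sp) on either strand, and a run of C and T that begins with C at the start. The windows lie at chr7:141447401-141447670 (Rplp2, plus strand), chr9:44407464-44407733 (Rps25, plus), chr7:24884342-24884611 (Rps19, plus) and chr11:114668330-114668599 (Rpl38, plus).
Rplp2: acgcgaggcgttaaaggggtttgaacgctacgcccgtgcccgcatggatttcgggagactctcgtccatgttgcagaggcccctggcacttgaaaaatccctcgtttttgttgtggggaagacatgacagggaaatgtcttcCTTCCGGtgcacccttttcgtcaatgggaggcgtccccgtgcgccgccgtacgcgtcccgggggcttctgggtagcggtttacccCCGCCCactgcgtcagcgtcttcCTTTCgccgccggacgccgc
Rps25: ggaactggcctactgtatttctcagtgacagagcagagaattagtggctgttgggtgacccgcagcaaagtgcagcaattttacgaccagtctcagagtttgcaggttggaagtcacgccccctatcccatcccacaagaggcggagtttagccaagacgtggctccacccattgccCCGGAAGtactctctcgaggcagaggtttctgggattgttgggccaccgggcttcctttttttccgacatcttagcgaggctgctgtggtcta
Rps19: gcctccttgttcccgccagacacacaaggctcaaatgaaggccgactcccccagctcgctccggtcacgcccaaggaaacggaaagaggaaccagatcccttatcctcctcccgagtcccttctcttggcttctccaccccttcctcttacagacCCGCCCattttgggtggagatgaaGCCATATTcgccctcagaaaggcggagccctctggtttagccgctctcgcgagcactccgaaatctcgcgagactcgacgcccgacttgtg
Rpl38: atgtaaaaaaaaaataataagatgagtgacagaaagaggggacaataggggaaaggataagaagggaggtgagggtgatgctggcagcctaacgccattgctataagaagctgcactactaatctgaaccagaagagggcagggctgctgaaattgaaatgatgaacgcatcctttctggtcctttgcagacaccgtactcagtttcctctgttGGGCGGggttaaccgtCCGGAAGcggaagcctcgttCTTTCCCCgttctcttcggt
The pooled PSME3 peak covered 221 of the 270 bases at Rplp2, 150 at Rps25 and 131 at Rps19. The 4 windows differ in their motifs. Rplp2 and Rpl38 hold an ETS and an Sp match and a pyrimidine run, Rps25 holds an ETS match only, and Rps19 holds a YY1 and an Sp match.

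The longest TOP tracts among canonical members are shown next, as 10 bases before the start and 15 from it, with the tract in capitals. None of these 8 genes had a pooled PSME3 peak.
Rpl15: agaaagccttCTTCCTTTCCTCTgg
Rpl35: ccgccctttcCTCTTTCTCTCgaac
Rps10: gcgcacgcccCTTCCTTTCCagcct
Rps18: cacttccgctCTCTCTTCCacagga
Rps6: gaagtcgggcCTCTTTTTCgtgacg
Rpl28: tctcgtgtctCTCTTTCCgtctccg
Rpl38: aagcctcgttCTTTCCCCgttctct
Rps15a: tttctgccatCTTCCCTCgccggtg
A RefSeq window was at hand for 69 members. Those without include Rpl30, Rpl29, Rps14, Rplp1, Rps27a, Rpl8, Rpl23a, Rpl17, Rpl32, Rpl3, Rps29, Rpl21, Rpl36, Rpl7 and Rps20. A tract of at least 5 bases at the annotated start was present in 14 of the 69 members (20.3%), against 2.17% of the 17492 windows of all coding genes, and since the tract must begin at the annotated base this counts only starts placed exactly. CCGGAAG was in 36.2% of member windows against 11.9% of all, GCCATNTT in 18.8% against 6.65%, and GGGCGG in 58.0% against 46.3%. CACGTG, the E-box, was in 7.25% against 7.91%, and TATAAA in 11.6% against 13.3%, all on either strand. Other genes with a pooled H3K4me3 peak are the closer comparison. GGGCGG was in 61.9% of the windows of the 63 members with this mark, beside 71.4% of other marked genes with a pooled PSME3 peak and 60.5% of those without. CCGGAAG was in 38.1% of the marked members and in 16.1% and 18.2% of these others, GCCATNTT in 20.6% against 7.94% and 8.77%, and a tract in 12 of 63 against 2.37% and 2.08%. The median GC content was 57% for all member windows and 56.3% for those of all coding genes, and 58.3% for the marked members beside 62.7% and 60% for other marked genes with and without PSME3. Of the 14 members with a tract, Rplp2 alone had a pooled PSME3 peak, beside 9 of the 55 without a tract. CCGGAAG was in 4 of 10 windows with a pooled PSME3 peak and in 21 of 59 without.

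The deposited lists hold called peaks with their fold enrichment. Read numbers are not among their columns and depth is therefore unknown. Fold enrichment was ranked inside each list, as a percentile among all coding genes that have a peak there. A gene's value is that of the peak with the highest -log10 q within 1 kb of its span. In a population of cells, fewer cells with a peak and a weaker peak in each cell cannot be told apart. The PSME3 lists of cycling cells held 776 to 3070 peaks per replicate and 5812 when pooled, and those of day 2 cells held 18 to 186. The H3K4me3 lists held 14372 to 40999 peaks, with replicate 2 of the cycling cells standing apart by its number of peaks and their median width of 662 bp, against 1348 to 1844 bp in the other 7 lists. H3K4me3 peaks were at all 6 myoblast markers, among them Myod1 and Myf5, in every list. Of the 9 differentiation markers, 5 had a peak in the pooled cycling list, 2 to 4 in each cycling replicate and 9 in each day 2 library. Myog, Myh3, Actc1 and Tnnt1 had none in the cycling lists. Of the 8 markers of other cell types, 0 to 3 had a peak per list, and Ptprc, Cdh5, Epcam, Krt5 and Alb had none in any. Sox2 had a peak in every list but that of the fresh native day 2 library, Pecam1 in some lists of both states, and Rbfox3 in cycling replicate 2 only.

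PSME3 was found at few ribosomal protein genes in cycling cells and at none on day 2. In the pooled cycling list, 12 of 89 members had a PSME3 peak within 1 kb, a share of 13.5% whose exact 95% interval by the Clopper-Pearson method was 7.17 to 22.4% and covers counting error alone, against 21.9% of all protein-coding genes. The replicate lists gave 2, 1 and 8 members in replicates 1, 2 and 3, against 4.56%, 3.60% and 13.4% of all coding genes. The mean over the replicates was 4.12% ± 4.25 of the members and 7.19% ± 5.41 of all coding genes (SD, n = 3), so the replicates differed among themselves by more than the members differed from the rest. In each of the 4 cycling lists the members' share was the lower of the pair. Ribosomal protein genes have many processed copies, and a pipeline that drops reads with several matching positions can lower the signal at the parent genes. How such reads were treated is not given in the sources used here, and their part in the PSME3 shares was not tested. On day 2, no member had a PSME3 peak in any preparation, where 0.950% of all coding genes did in the native and 0.402% in the crosslinked frozen cells, and 0.0868% in the native and 0.0776% in the crosslinked fresh cells. The largest of these shares corresponds to less than 1 gene in 89, so the lists do not set the members apart on day 2.

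**Figure D1:**
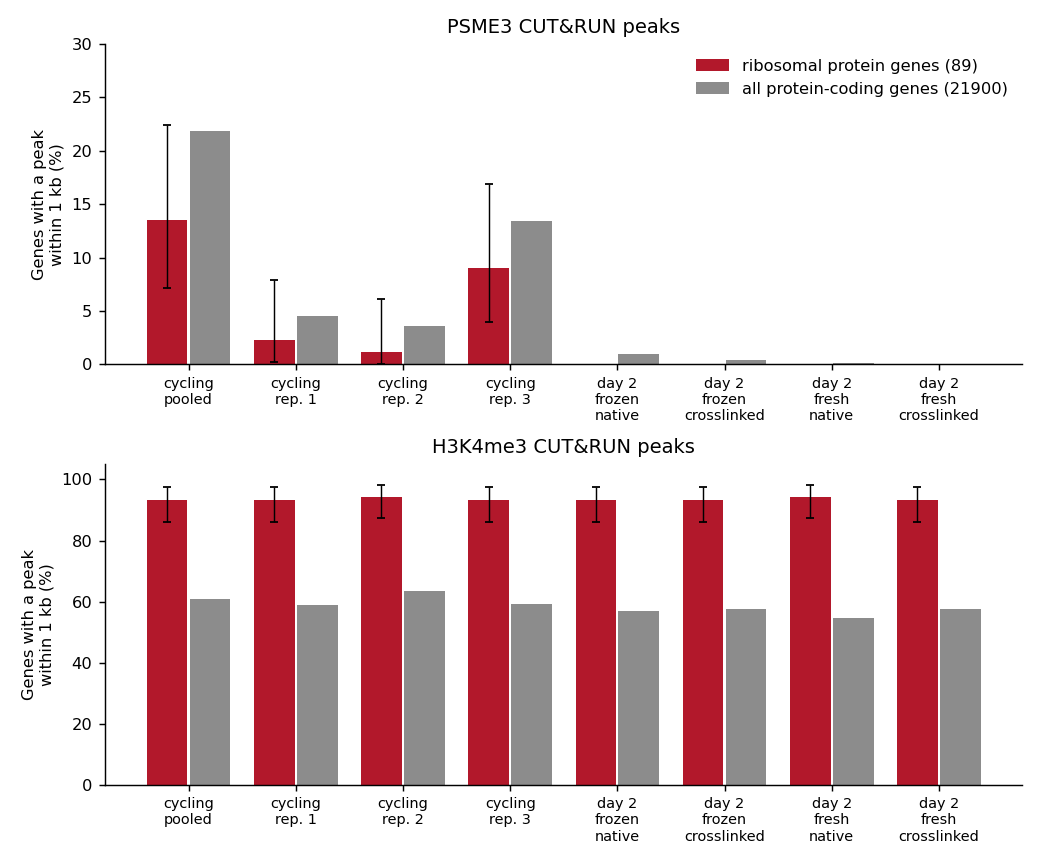
Percent of the 89 ribosomal protein genes and of all 21900 protein-coding genes with a PSME3 (top) or H3K4me3 (bottom) peak within 1 kb of the gene span, in each list. Error bars are exact 95% Clopper-Pearson intervals and are left out where the count is 0. The members' bars are below those of all genes for PSME3 and above them for H3K4me3 in every list of cycling cells.

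The 12 members with a pooled PSME3 peak were spread over both subunits, with 8 of 46 large subunit genes, 2 of 31 small subunit genes and 2 of 10 paralogs. Rplp2, which encodes an acidic protein of the stalk that recruits translation factors, had the highest fold enrichment, 4.00 in the pooled list and 5.04 in replicate 3, with no peak in replicates 1 and 2. Rps25, a small subunit protein used in internal initiation by some viral RNAs, had 3.83 in the pooled list and no peak in any replicate list. Rps19, needed for maturation of the small subunit and mutated in Diamond-Blackfan anaemia, had 3.55 in the pooled list, 4.66 in replicate 1 and 3.26 in replicate 3. Rps19 was the only member with a PSME3 peak in at least 2 replicates, where 4.27% of all coding genes had one.

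Among the remaining large subunit genes, Rpl10a, a part of the mobile L1 stalk, had 3.42 in the pooled list and 3.70 in replicate 3. Rpl10, which is added late in the maturation of the subunit, had 3.06 in the pooled list only, and Rpl6 had 3.01 there and 3.74 in replicate 3. The lowest pooled values were those of Rpl5 (2.73), Rpl37 (2.59) and Rpl30 (2.54). Rpl5 binds the 5S rRNA together with Rpl11, and free complexes of these proteins restrain the p53 ligase Mdm2. Rpl11 had no PSME3 peak in any list. The stalk genes Rplp0 and Rplp1, the partners of Rplp2, had none either. A further 3 members had a peak in a single replicate and not in the pooled list, namely Rpl7 (4.38, replicate 1), Rpl12 (4.51, replicate 2) and Rps21 (3.35, replicate 3). In all, 15 members had a PSME3 peak in any list and 74 had none. The same count over all coding genes was not made. A peak in at least 1 cycling replicate was listed at 10 members (11.2%), against 16.1% of all coding genes.

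**Figure D2:**
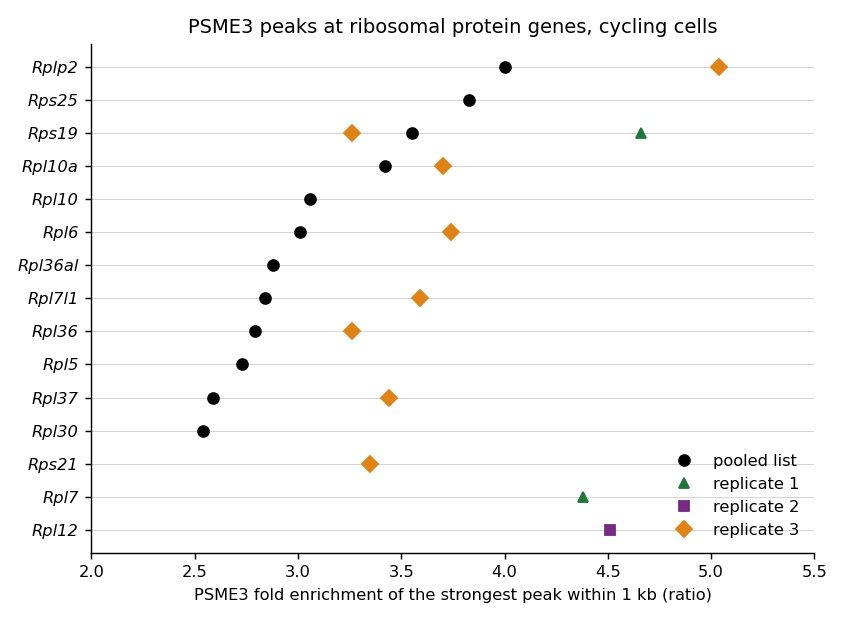
PSME3 fold enrichment (ratio over background, horizontal axis) of the strongest peak within 1 kb for each of the 15 ribosomal protein genes with a PSME3 peak in any cycling list. Each symbol is 1 list, and a missing symbol means that no peak was listed there. Rps19 alone has symbols for 2 replicates, and most replicate values are from replicate 3.

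The members with PSME3 were not among its strongest sites as a group. Their fold enrichment lay between percentiles 5.06 (Rpl30) and 95.2 (Rplp2) of all coding genes with a pooled PSME3 peak, with a median of 48.9. Their -log10 q ranged from 1.29 to 4.93 with a median of 1.95, against 2.23 for all coding genes with a peak, and their median width was 347.5 bp against 460 bp. At a q of at most 0.01, 6 of the 12 members kept a peak, and 58.4% of the 4794 other coding genes did.

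The PSME3 peaks sat at the promoters of these genes. Among the 10 members with a known start, the centre of the strongest peak was within 500 bp of a start in 9, against 70.9% of 3907 other genes with a peak. The centre was upstream of the start in 7 of the 10 members and in 44.7% of the others, with medians of -82.5 bp and 44.5 bp. In replicate 3, which has 7 such members, 5 peaks were upstream, against 46.6% of the others. Replicates 1 and 2 have 1 such member each, both upstream, and there the others were upstream in 56.9% and 53.9%, so the sign of the others' offset changed between lists. The exception was Rpl7l1, a paralog of Rpl7 in ribosome assembly, whose strongest peak was at the end of the gene, 9806 bp downstream of the start and also within 1 kb of 2310039H08Rik, with a weaker peak (2.74) centred at -45.5 bp from the start. All 13 pooled PSME3 peaks at members were fully inside a pooled H3K4me3 peak. This is no trait of the members, since 4745 of the 4794 other coding genes with a pooled PSME3 peak also had a pooled H3K4me3 peak within 1 kb.

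Several of these peaks lay between a ribosomal protein gene and another gene. At 6 of the 12 members the strongest pooled PSME3 peak was also within 1 kb of another protein-coding gene, Pidd1 at Rplp2, Trappc4 at Rps25, Mgat2 at Rpl36al, Card6 at Rpl37, Micos13 at Rpl36 and 2310039H08Rik at Rpl7l1. Among the 4794 other coding genes with a pooled PSME3 peak this was so for 28.7%. Another coding gene lay within 1 kb of 35 members, of which 9 (25.7%) had a pooled PSME3 peak, against 3 of the 54 members with no such neighbour (5.56%). The other coding genes were split in the same direction, with 31.2% of 6901 genes that have such a neighbour and 17.7% of 14910 that have none. For shared peaks the list does not tell which of the 2 genes the signal belongs to.

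H3K4me3, by contrast, was nearly uniform over the members. A pooled cycling peak was present at 83 of 89 members (93.3%), all 77 canonical genes among them, against 60.9% of all coding genes. The replicates gave 83, 84 and 83 members, against 58.8%, 63.6% and 59.1% of all genes. The mean over replicates was 93.6% ± 0.649 of the members and 60.5% ± 2.68 of all coding genes (SD, n = 3), so the difference was larger than the spread between replicates. On day 2 the count was 83 in the frozen native (all genes, 56.9%), 83 in the frozen crosslinked (57.6%), 84 in the fresh native (54.5%) and 83 in the fresh crosslinked library (57.5%). The same 83 members had a peak in each of the 8 H3K4me3 lists, and 83 had a peak in all 3 cycling replicates, against 57.6% of all genes.

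The members without the mark in the pooled list were 5 paralogs and Rps23rg1. Rpl10l and Rpl39l, known for expression in testis, and Rps27rt and Rpl32l had no H3K4me3 peak in any list. Rpl37rt had a peak in replicate 2 only, with a fold enrichment of 2.90, and Rps23rg1 in the fresh native day 2 library only, with 2.67. The paralogs Rpl22l1, Rps27l, Rpl36al, Rpl7l1 and Rpl3l were marked in all 8 lists. Rpl3l, the form of Rpl3 made in striated muscle, had the lowest pooled fold enrichment of the marked members (9.14), below Rps19bp1 (9.86). A peak anywhere within 1 kb of the span counts, and that of Rpl3l lies at the end of the gene. Few processed copies of ribosomal protein genes had a listed peak. Of 306 pseudogenes with an Rpl or Rps symbol, 7 had a pooled H3K4me3 peak and 1 a pooled PSME3 peak within 1 kb, and 0 overlapped a pooled peak of either kind with their own span. In the single H3K4me3 libraries, 2 to 14 had a peak within 1 kb, and 1 was overlapped by a peak in cycling replicate 3 and 1 in the fresh crosslinked day 2 library. Reads from such copies can match the parent genes as well, so a copy without a peak is not shown to lack the signal.

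Among genes with H3K4me3, the share with PSME3 was lower for the ribosomal protein genes than for the others in the pooled list and in each replicate. Of the 83 marked members, 12 had a pooled PSME3 peak (14.5%, exact 95% interval 7.70 to 23.9%), against 4745 of 13263 other marked genes (35.8%) and 35.6% of all marked genes. Within replicates 1, 2 and 3 the values were 2.41%, 1.19% and 9.64% of the marked members against 7.60%, 5.69% and 22.6% of the other marked genes, so the members were lower in 3 of 3 replicates. The lower share went with wide, not narrow, H3K4me3 peaks. Over 10 classes of H3K4me3 width, the share of other genes with PSME3 went from 9.06% in the narrowest to 56.9% in the widest class. In the 2 widest classes, which hold 54 of the marked members, 6 of 27 and 2 of 27 had PSME3, against 52.4% and 56.9% of the others. At the members' own mix of width classes the others had 50.9%. The distance was smaller for other measures, with 38.3% of the others at the members' mix of H3K4me3 fold enrichment classes and 31.0% at that of gene lengths, both against 14.5%, and 34.8% against 15.9% at that of promoter GC content. Within 1 kb of a known start alone, where every gene has a window of the same size, 16.1% of 62 marked members and 32.2% of the other marked genes had PSME3. For members with no other coding gene within 1 kb the share was 5.88% of 51, against 33.5% of 7786 others.

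**Figure D3:**
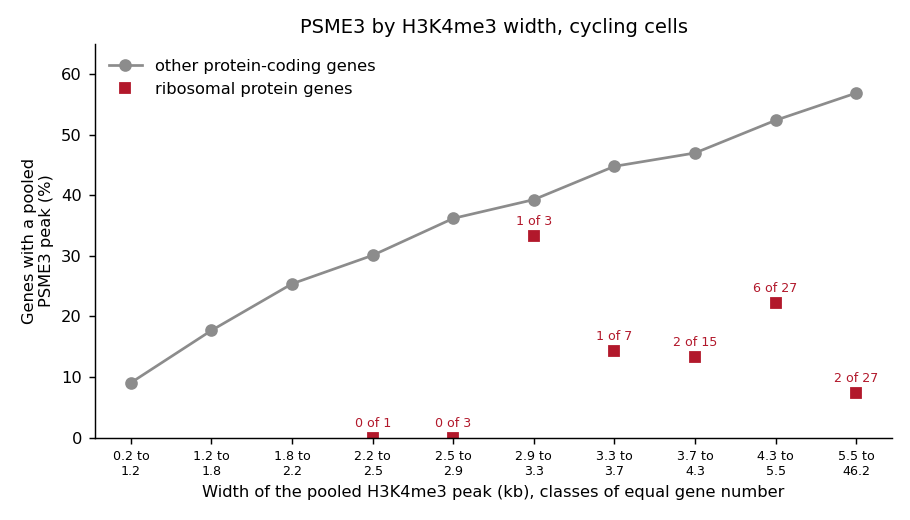
Percent of genes with a pooled PSME3 peak (vertical axis) in 10 classes of the width of their pooled H3K4me3 peak in kb (horizontal axis), for ribosomal protein genes (squares, with counts) and other protein-coding genes (line). The line goes up with width to 56.9%, and each square is below it.

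Of the other gene lists of translation and proteolysis, 3 also had PSME3 at a lower share of their marked genes than the 35.8% of other marked genes, and 1 at a higher share. The 78 mitochondrial ribosomal protein genes (Mrpl and Mrps) all had a pooled H3K4me3 peak, and 17 of them (21.8%) had PSME3. The proteasome subunit genes (Psma, Psmb, Psmc and Psmd) had PSME3 at 8 of 40 (20.0%), or 21.1% of those with H3K4me3. Of 20 genes of ribosome assembly and RNA polymerase I, 5 had a pooled PSME3 peak, and all 20 had H3K4me3. Those with PSME3 included Ncl, which encodes nucleolin (2.91), Ubtf, the polymerase I factor UBF (3.08), and Rrp9, a protein of the U3 snoRNP (3.94). The 17 other genes of the TOP class had a PSME3 peak at 8 (47.1%), and all 17 had H3K4me3. The TOP genes with PSME3 were Hnrnpa1 (3.54, and in all 3 replicates), Npm1 (3.23), Eef1d (3.12), Pabpc1 (3.10), Eef1a1 (2.94), Eef2 (2.90), Rack1 (2.76) and Eif4b (2.50). Pabpc1, the poly(A)-binding protein, also had a peak in the frozen native day 2 list (4.51). These lists were chosen with earlier results known and are small, and the shares are given as counts without a test.

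The height of H3K4me3 at the ribosomal protein genes was close to that of other marked genes. The members' median percentile in fold enrichment was 52.4 in the pooled list, with a range from 22.1 to 92.8, and 41.0, 56.0 and 50.7 in the replicates. On day 2 it was 54.2 in native and 57.3 in crosslinked frozen cells, and 53.4 in native and 61.0 in crosslinked fresh cells. The highest pooled fold enrichments were those of Rps25 (20.7), Rpl7l1 (20.3), Rpl38 (19.5), Rps27a (18.8) and Rps2 (18.6). Rpl38 takes part in selective translation of Hox mRNAs, Rps27a is made as a fusion with ubiquitin, and Rps2 lies near the mRNA entry channel. In the stalk, Rplp2 had 18.2, Rplp1 15.6 and Rplp0 12.7, and the 5S partners Rpl5 and Rpl11 had 14.5 and 14.9. Rps19 had 13.8. Within classes of equal width the median percentile of the members was 31.8, so among equally wide peaks those of the ribosomal protein genes were rather low.

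The mark was wide at these genes in cycling cells, as it was at other genes of the TOP class and of ribosome assembly. The median width of the pooled peak was 4915 bp at the members against 2870 bp at other marked genes, a ratio of 1.71. The other TOP genes had a median of 6379 bp and the ribosome assembly genes 4385 bp, while the mitochondrial ribosomal protein and proteasome genes had 2703 and 2864 bp. The ratio was 1.64, 1.63 and 1.59 in the replicates (medians of 4023, 4470 and 4083 bp). The widest pooled peaks were at Rpl7a (11520 bp), Rpl24 (11372 bp) and Rpl3 (9485 bp). At Rpl24 the replicate peaks were 4354, 5460 and 3989 bp wide, each below the pooled width. At Rpl7a the replicates gave 9519, 10382 and 9450 bp.

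The extra width lay mostly downstream of the start. For the 62 members with a known start inside the mark, the pooled peak reached a median of 1074 bp upstream and 3723 bp downstream, against 927 and 1805 bp for 9539 other genes. The members are short, with a median span of 3183 bp against 17146 bp for all coding genes. The whole gene lay inside the peak for 39 of the 62 members (62.9%) and 3.51% of the others, and among genes under 5 kb for 74.0% of 50 members and 28.6% of 1093 others. In the cycling replicates the gene was inside the peak for 24 of 62, 33 of 63 and 29 of 61 members, against 2.47%, 3.30% and 2.66% of the others. Among others under 5 kb it was 21.4%, 25.8% and 23.3%, beside 23, 32 and 29 of 50 such members.

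**Figure D4:**
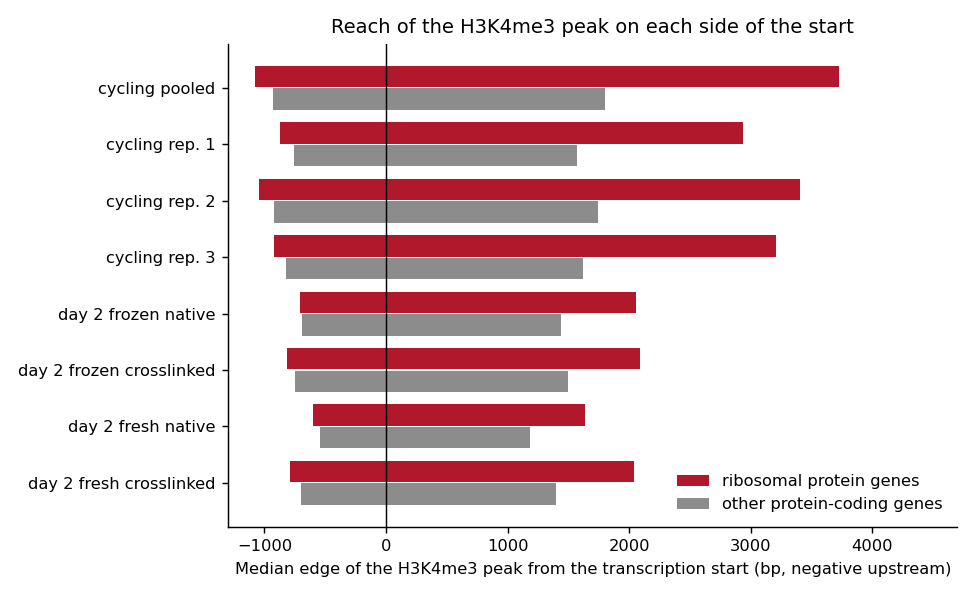
Median distance in bp from the transcription start to the upstream (negative) and downstream edge of the H3K4me3 peak, in each H3K4me3 list, for ribosomal protein genes and other protein-coding genes with a known start. The downstream bars of the members go from 2940 to 3723 bp in the cycling lists and from 1636 to 2093 bp in the day 2 lists, while the upstream bars of both gene groups are within 541 to 1074 bp.

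On day 2 the mark was still present at the ribosomal protein genes but narrower. In the frozen native library the median width at the members was 2738 bp against 2270 bp at other marked genes, a ratio of 1.21, and it was 2823, 2192 and 2695 bp in the frozen crosslinked, fresh native and fresh crosslinked libraries (ratios of 1.19, 1.20 and 1.22). Taken gene by gene, the peak of the frozen native day 2 library was narrower than in all 3 cycling replicates at 80 of the 83 members with a peak in all 7 libraries (96.4%), against 65.2% of 11642 coding genes. It was wider than in all 3 at 0 members, against 7.83% of genes. The peak was narrower in all 4 day 2 libraries than in all 3 cycling replicates at 69 members (83.1%), against 39.9% of genes. The median log2 ratio of the frozen native width to the mean cycling width was -0.59 for members and -0.22 for other genes. In the frozen crosslinked, fresh native and fresh crosslinked libraries it was -0.47, -0.99 and -0.55 for members, against -0.16, -0.57 and -0.24. Day 2 has 1 library per preparation, and the state of the cells cannot be told apart from the run in which they were assayed.

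The narrowing was on the downstream side for the most part. The median downstream edge at the members was at 2940, 3409 and 3211 bp in the cycling replicates and at 2054, 2093, 1636 and 2038 bp on day 2. The upstream edge was at 872, 1045 and 922 bp, then at 704, 812, 604 and 789 bp. The number of members lying wholly inside their peak went to 9 of 61 in the frozen native library, and among genes under 5 kb it was 9 of 50, beside 17.6% of other such genes. In the frozen crosslinked, fresh native and fresh crosslinked libraries it was 13, 4 and 8 of 50, beside 19.4%, 13.1% and 17.1%.

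The members' median ratio was the lower in each of the 7 width classes that hold members. In the widest of 10 classes of mean cycling width, the median log2 ratio was -0.96 for 23 members and -0.25 for 1142 other genes, and in the next class -0.62 for 26 members and -0.21 for 1137 others. Large drops were seen both at members with cycling replicates close together, such as Rplp0 and Rpl7a, and at members with replicates far apart. Rpl8 had 4307, 11100 and 4980 bp in cycling cells and 1935 bp in the frozen native library. Rplp0, the scaffold of the stalk, had 7362, 8025 and 7851 bp in cycling cells and 2225, 3315, 1658 and 2695 bp on day 2, in the order frozen native, frozen crosslinked, then fresh native and fresh crosslinked. Rpl7a had 3713, 3837, 2907 and 3899 bp on day 2. Rplp1 went from 3892, 3966 and 4052 bp to 2569 bp there, Rplp2 from 3881, 3457 and 3987 bp to 2057 bp, and Rps19 from 4977, 4468 and 4831 bp to 3099 bp. The day 2 values of these genes are below all their cycling values. Rpl5 had 2990, 3832 and 3354 bp in cycling cells and 2403 bp in the frozen native library, and Rpl11 had 3326, 5822 and 3669 bp and then 2148 bp.

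The 3 members without a narrower frozen native peak were Rpl41, Rps29 and Rps2. Rps2 had 6158, 6940 and 6414 bp in cycling cells and 6181 bp in the frozen native library. Rpl41, the shortest ribosomal protein, had 3286, 4396 and 3828 bp and then 3441 bp. At Rpl38, the peak was narrower in the frozen libraries (2103 and 2221 bp) and wider in the fresh ones (4834 and 4661 bp) than the cycling peaks of 4112, 2394 and 2629 bp.

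**Figure D5:**
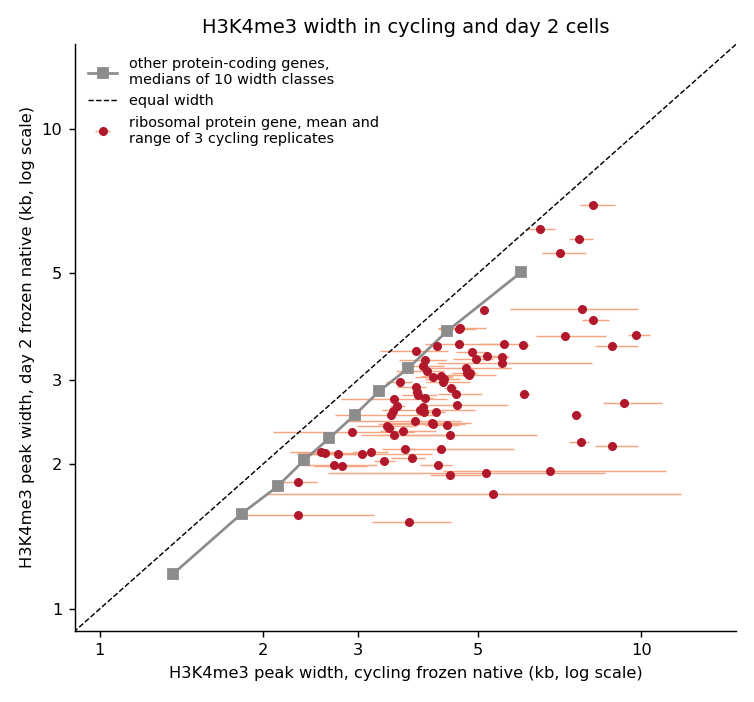
Width in kb of the H3K4me3 peak in the frozen native day 2 library (vertical) against the cycling replicates (horizontal), both on log scales, for the 83 ribosomal protein genes (points at the mean of 3 replicates, with the range as bars). The line joins medians of other protein-coding genes in 10 width classes, the dashed line is equal width, and the members lie below the dashed line, most of them also below the line of the other genes.

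The bases covered by H3K4me3 peaks, rather than the width of the strongest peak, gave a like result. Within the gene span and 5 kb on each side, fewer bases were covered in the frozen native day 2 library than in all 3 cycling replicates at 79 of 83 members, against 70.0% of genes, and the median log2 ratio was -0.57 for members and -0.31 for others. Other gene groups showed the difference to different degrees. The frozen native peak was narrower than in all cycling replicates at 69 of 78 mitochondrial ribosomal protein genes (88.5%), 29 of 37 proteasome genes (78.4%), 15 of 17 other TOP genes (88.2%) and 17 of 20 ribosome assembly genes (85.0%). The peak was narrower in all 4 day 2 libraries at 14 of the 17 other TOP genes (82.4%), close to the 83.1% of the members, and at 13 of the 20 ribosome assembly genes, 60.3% of the mitochondrial ribosomal protein and 43.2% of the proteasome genes. The median log2 ratios of the mitochondrial ribosomal protein, proteasome, TOP and assembly genes in the frozen native library were -0.36, -0.22, -0.46 and -0.32. For other genes under 5 kb the share was 77.1% and the median -0.34. Large and small subunit genes had close values, with medians of -0.63 for 46 and -0.58 for 31 genes.

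The relative height of the mark moved at few members. Its percentile was higher in all 4 day 2 libraries than in all 3 cycling replicates at 11 of 83 members (13.3%), against 5.94% of genes, and lower at 7 (8.43%), against 16.6%. The higher group was mostly of the large subunit (8 genes, among them Rpl37a, Rpl7a, Rpl12, Rpl5, Rpl41, Rpl15 and Rpl8), with Rps13, Rps24 and the muscle paralog Rpl3l. The lower group was mostly of the small subunit (6 genes, among them Rps21, Rps19, Rps16, Rpsa and Rps2), with Rpl10a. Rpl8 had percentiles of 40.6, 59.2 and 35.9 in the cycling replicates and 80.0, 96.2, 89.3 and 96.8 on day 2, in the same order of libraries. Rpl3l had 28.5, 27.0 and 24.6 and then 41.5, 52.8, 35.3 and 39.9, though its peak lies at the end of the gene. Rps2 had 74.7, 79.2 and 86.1 and then 44.4, 53.2, 42.5 and 53.1, and Rps19 had 34.7, 44.2 and 28.2 and then 25.7, 21.5, 24.0 and 20.7. That the cycling and day 2 values of these 4 genes do not overlap is how the groups were drawn. A percentile ranks a gene among the others of its list, so it gives no change in the amount of the mark.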

How the data were processed

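PSME3 and H3K4me3 CUT&RUN peaks of cycling and day 2 C2C12 cells were used from 16 deposited lists, 14 of single libraries and 2 that the authors called on the pooled cycling replicates. The 7 IgG libraries of the 21 in the series were not analysed here. Reads were trimmed with Trim Galore, aligned to mm10 with Bowtie2 and used for peak calling with MACS2 by the authors. Versions, and the handling of reads with several matching positions, are not given in the sources used here. Each deposited list gives the fold enrichment (a ratio) and the -log10 of the q-value of each peak, and the highest q in any list is 0.0987.

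Genes were the protein-coding genes of the RefSeq table of GRCm38.p6, which shares its coordinates with mm10. A peak counted where it shared at least 1 bp with the gene span extended by 1 kb. The table has no strand, so starts and strands came from the RefSeq start windows, taking for each gene the start nearest to its 5′ end, or for PSME3 offsets the start nearest to the peak. Samples were grouped by their labels. Differences are given as counts and medians beside the same over all coding genes, without a test. Overlap, merging and motif search were tested on simulated data, in Python 3.11.15 with pandas 2.3.3 and numpy 2.4.6.

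The members and lists were chosen with earlier results of these data known. Named genes are the 5 members highest and 3 lowest in pooled PSME3 fold enrichment, the 5 highest in H3K4me3 fold enrichment and the 5 widest in H3K4me3, those without H3K4me3, paralogs, the stalk genes, Rpl5, Rpl11 and Rps19. Others were named after their values were seen. Some members that these rules select are not reported here by name, though all counts include them. Alternatives were a q of at most 0.05 or 0.01, distances of 0 and 3 kb, known starts, peak centres, the merged replicates, each replicate left out, and canonical members alone. Those on the narrowing of H3K4me3 and on PSME3 among marked genes were added after seeing the data.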

Additional observations from a re-analysis of the deposited data

How the results depend on the processing

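The lists give no read numbers, so that a missing peak can come from depth. Day 2 has 1 library per preparation. No paired analysis was possible because the day 2 groups have 1 library each, so that they share fewer than 2 replicate numbers with the cycling group, and members were set beside other genes inside each library, by counts and without a test.

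The 83 members with H3K4me3 in the pooled cycling list, and the 83 in the frozen native day 2 list, stayed within 1.5 times under every alternative run, and the 0 members with PSME3 in the frozen native day 2 list stayed at 0. The 12 members with a pooled PSME3 peak became 6 at a q of at most 0.01 and 6 where the peak had to overlap the gene span itself, and were 10 to 14 under the other alternatives. At this q, 58.4% of the 4794 other coding genes with a peak kept one. Under the gene span rule the other coding genes were not counted, so whether the members' share stays the lower there is not known. The 1 member with PSME3 in at least 2 replicates, Rps19, became 0 at a q of at most 0.01, and leaving out a replicate gave 0 to 1, with 0 without replicate 1 or replicate 3. The mean share of members with PSME3 over the replicates was 1.69 to 5.62% with a replicate left out, lowest without replicate 3. The median H3K4me3 percentile of 52.4 became 31.8 within the same width class. The median H3K4me3 width of 4915 bp was 4023, 4470 and 4083 bp in the lists of replicates 1, 2 and 3. The median PSME3 offset of -82.5 bp was -89 bp with the peak nearest to the start, and -211.5, -207 and -201.5 bp in the lists of replicates 1, 2 and 3, which hold 1, 1 and 7 such members. The 80 members with narrower H3K4me3 were 73 to 83 under the alternatives added, with 80 to 83 when a cycling replicate was left out. Among these alternatives only the covered bases were also counted over all genes, with 79 members beside 70.0% of genes. The 14.5% of marked members with PSME3 became 7.23% (others 21.0%, from 35.8%) at a q of at most 0.01 for PSME3, and 5.88% (others 33.5%) for genes with no other coding gene within 1 kb. Apart from the stricter thresholds and smaller sets themselves, the cause of these changes was not tested.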

Other observations

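Ribosomal protein genes are frequent hosts of snoRNAs, the guide RNAs of rRNA modification, which are cut from their introns. Of the members, 30 held 59 snoRNA genes within their span. A pooled PSME3 peak was present at 6 of these 30 hosts and at 6 of the 59 members without a snoRNA gene. Among other coding genes it was present at 31.9% of 342 hosts and 21.8% of 21469 genes without a snoRNA, so the members were below the others on both sides of this split.

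The 4 members on the X chromosome, Rps4x, Rpl39, Rpl10 and Rpl36a, had H3K4me3 percentiles from 26.0 to 31.5 in the pooled cycling list, against a median of 53.2 for the other marked members. The 372 other marked coding genes on the X had a median of 29.6, so these members were near the level of their chromosome. Rpl10 nonetheless had a pooled PSME3 peak.

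The H3K4me3 peaks of members with a pooled PSME3 peak were as wide as those of members without, with medians of 4942 bp for 12 and 4902 bp for 71 genes. Among other coding genes these medians were 3452 bp with PSME3 and 2559 bp without.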
